A study of Caenorhabditis elegans with 2 samples.

Results

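The regions described here are the 346 small nucleolar RNA (snoRNA) genes that the Ensembl annotation of the Caenorhabditis elegans assembly WBcel235 (ce11) places on the 6 nuclear chromosomes, out of 46890 annotated nuclear genes. Each gene was taken with 200 bp on either side. All genes of the class were taken by annotation and none was picked by its own signal, although the choice was made with earlier results of these data known. Of these genes, 169 lay inside an intron of a protein-coding gene without touching a protein-coding exon, 124 were free-standing, meaning that they overlapped no protein-coding gene, and 53 overlapped a protein-coding exon. Among the intronic genes, 141 were on the strand of their host, 27 were on the opposite strand, and 1 had hosts on both strands.

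The data are chromatin immunoprecipitation sequencing (ChIP-seq) of CEH-58, a homeodomain protein, in whole young adult worms aged 65 hours, in 1 group with 2 biological replicates and nothing to contrast it with. The worms were of strain OP808, which carries the integrated transgene wgIs808, a fosmid copy of ceh-58 fused to TY1, EGFP and 3xFLAG tags together with the unc-119(+) marker, in an unc-119(tm4063) background. They had been synchronised by bleaching and starvation at the first larval stage, and an anti-GFP antibody was used on chromatin sonicated to 200 to 800 bp. The profile therefore describes 1 transgenic strain and a mixture of all tissues, the control libraries were not analysed here, and the sequencing depth is unknown.

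SnoRNAs are short nuclear RNAs that guide the modification of other RNAs, chiefly ribosomal RNA. Box C/D snoRNAs direct 2'-O-methylation with the methyltransferase fibrillarin, and box H/ACA snoRNAs direct pseudouridylation with the synthase dyskerin. Many animal snoRNAs are cut from the introns of host genes, while others have promoters of their own. RNA polymerase III genes such as tRNA genes are recognised through internal sequences called box A and box B, which the factor TFIIIC binds, and in some small RNA genes these boxes lie upstream of the mature RNA.

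The upstream sequences are shown first because, among the groupings compared here, the listed share differed most with them. The box letters were chosen after the listed sequences had been seen, so this rank is a description and not a test. The sequences below are read 5' to 3' along the snoRNA strand from the RefSeq genome of WBcel235, from 110 bases before the annotated start to 12 bases after the annotated end. The first 4 carry box A letters (TGGNNNAG) followed, 25 to 90 bp later, by box B letters (GTTCNANNC), both in capitals. Where several box B matches qualified, the one nearest the gene is in capitals. C51F7.3 has a further box B match, left in lower case, between its capitals. All 4 had a CEH-58 summit in the authors' conservative list of reproducible peaks.
C51F7.3 (chrV:12303598-12303795, plus strand): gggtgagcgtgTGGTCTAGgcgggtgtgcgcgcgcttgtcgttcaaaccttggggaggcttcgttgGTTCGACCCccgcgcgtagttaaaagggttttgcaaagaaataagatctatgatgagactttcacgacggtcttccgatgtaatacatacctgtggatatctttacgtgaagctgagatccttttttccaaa
T03F7.8 (chrV:11314148-11314344, plus strand): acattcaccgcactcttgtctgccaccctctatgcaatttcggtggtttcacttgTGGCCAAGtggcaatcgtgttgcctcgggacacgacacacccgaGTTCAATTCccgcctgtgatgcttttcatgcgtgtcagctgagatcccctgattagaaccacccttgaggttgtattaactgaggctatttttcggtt
W03C9.9 (chrII:11960788-11960971, plus strand): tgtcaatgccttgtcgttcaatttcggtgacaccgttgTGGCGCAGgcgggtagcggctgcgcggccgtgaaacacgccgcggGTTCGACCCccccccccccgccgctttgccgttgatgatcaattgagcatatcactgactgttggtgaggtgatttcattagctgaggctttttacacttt
F32E10.10 (chrIV:7574012-7574203, plus strand): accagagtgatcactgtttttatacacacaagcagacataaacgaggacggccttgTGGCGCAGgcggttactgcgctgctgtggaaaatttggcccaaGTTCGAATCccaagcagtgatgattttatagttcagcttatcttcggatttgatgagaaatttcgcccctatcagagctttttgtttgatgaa
C51F7.3 lies at chrV:12303708-12303783 in intron 4 of frm-7, T03F7.8 at chrV:11314258-11314332 in intron 7 of cutl-18 on the opposite strand, and the other 2 are free-standing. The next sequence had the second strongest summit but no such boxes, and its capitals mark the letters TGTCGG, which were searched for after the sequence had been seen. It lies at chrV:8500579-8500645 in intron 17 of pxn-1.
ZK994.7 (chrV:8500469-8500657, plus strand): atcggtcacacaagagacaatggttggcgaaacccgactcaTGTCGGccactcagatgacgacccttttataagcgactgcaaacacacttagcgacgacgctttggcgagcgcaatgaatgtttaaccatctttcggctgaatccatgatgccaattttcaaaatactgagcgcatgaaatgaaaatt
The last 2 genes had no summit in that conservative list, although each had a candidate peak that fell short of its limit. T24H7.6, in an intron of T24H7.2, carries the boxes in capitals, and H06I04.8, in an intron of ubl-1, carries neither pattern.
T24H7.6 (chrII:6248607-6248867, plus strand): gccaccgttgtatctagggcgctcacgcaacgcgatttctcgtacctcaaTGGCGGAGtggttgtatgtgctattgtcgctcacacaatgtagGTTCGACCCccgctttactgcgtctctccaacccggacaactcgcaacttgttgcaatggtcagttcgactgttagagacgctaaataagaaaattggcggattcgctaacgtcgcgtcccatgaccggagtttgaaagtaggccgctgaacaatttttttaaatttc
H06I04.8 (chrIII:3068696-3068895, plus strand): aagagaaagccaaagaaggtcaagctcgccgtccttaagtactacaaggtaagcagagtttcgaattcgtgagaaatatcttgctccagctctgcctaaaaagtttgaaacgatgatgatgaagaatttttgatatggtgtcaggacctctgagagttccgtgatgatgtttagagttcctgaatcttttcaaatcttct

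The authors' candidate list holds 105945 candidate peaks, each with a signal value, which is the authors' own enrichment value, and an irreproducible discovery rate (IDR) score that reaches 1000. A snoRNA gene is called listed when its window holds the summit of a peak in the authors' conservative list of 483 peaks, which starts at an IDR of 0.01. That list took in 0.456% of all candidates. Of the 346 windows, 250 (72.3%) held a candidate, 226 of them 1 and 24 of them 2, and 96 held none. The windows held 266 candidate summits in all, 28 of them listed, because some summits fall in the windows of neighbouring genes.

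CEH-58 summits were listed at 29 of 346 snoRNA genes, a share of 8.38% with an exact (Clopper-Pearson) 95% interval of 5.69 to 11.8%. These intervals cover counting error over genes only. As background, the genome was cut end to end into 188521 tiles of 530 bp, the median width of a snoRNA window, leaving out those that touch one, and 0.236% of these tiles held a listed summit. The share was 0.146% among tiles centred in protein-coding introns and 0.257% among those centred outside protein-coding genes. In the introns of the snoRNA host genes themselves, 3 of 1164 tiles centred in introns without a snoRNA gene held one, or 0.258%.

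The same excess over tiles was present in each replicate. Replicate 1's own list of 156 peaks reached 18 snoRNA genes (5.20%) against 0.0716% of tiles. Replicate 2's own list of 92 peaks reached 13 (3.76%) against 0.0414% of tiles. The authors' looser optimal list reached 35 snoRNA genes against 0.364% of tiles, and it included all 29. Of the 29 listed genes, 10 were in both replicates' own lists, 6 in replicate 1's only, 3 in replicate 2's only, and 10 in neither. With 1 group of 2 replicates, an exact sign-flip test over samples cannot give a p below 0.5, so no test over samples was made and the replicate values are given instead.

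Top signal was also higher across snoRNA windows than across tiles. The median top signal, the highest candidate signal in a window among windows that held a candidate, was 32.6 for snoRNA windows and 23.2 for tiles. The 317 unlisted snoRNA genes alone had a median of 29.3. In the replicates' own candidate lists the snoRNA median was 23.1 against a tile median of 16.9 in replicate 1, and 18.2 against 14.5 in replicate 2. On the log2 scale these differences were 0.46 and 0.33, a mean of 0.39 with an SD of 0.090 (n = 2). The top signal exceeded the 95th percentile of tiles that held a candidate, 44.7, in 68 of 346 snoRNA windows (19.7%) and in 39 of the 317 unlisted ones (12.3%), against 2.49% of all tiles.

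The strongest summit lay in the frm-7 gene, which encodes a FERM domain protein, in the windows of 2 neighbouring snoRNA genes. C51F7.4 (chrV:12303599-12303693) begins 1 base before intron 4 of frm-7 and so counts as exon-overlapping, and C51F7.3 follows it inside the same intron (chrV:12303600-12303866). The shared summit had a signal of 306, with 179 in replicate 1 and 121 in replicate 2. It lay 70 bp upstream of the start of C51F7.3 and 39 bp inside C51F7.4.

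ZK994.7, in an intron of the peroxidasin gene pxn-1, had a signal of 284, with 140 in replicate 1 and 139 in replicate 2. T03F7.8, on the opposite strand to the cuticlin-like gene cutl-18, had 170, with 78.6 in replicate 1 and 89.1 in replicate 2. These 3 summits were the highest at any snoRNA gene, and they sat 70, 11 and 45 bp upstream of C51F7.3, ZK994.7 and T03F7.8.

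The 5 highest free-standing snoRNA genes followed at lower signals. W03C9.9 (chrII:11960898-11960959) had 168, with 86.4 in replicate 1 and 74.5 in replicate 2. ZK265.10 had 165, with 109.6 and 51.0. F32E10.10 (chrIV:7574122-7574191) had 142, with 94.2 and 49.2. The next were T19B4.8 with 133 (69.0 and 62.0) and Y75B12B.12 with 127 (77.8 and 48.9). Replicate 1 was the higher in all 5, and the summits lay 94, 61, 34 and 47 bp upstream and, for Y75B12B.12, 60 bp inside the gene.

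Y23H5B.10, another free-standing gene, completes the 10 highest with 124 (72.8 and 49.1). The remaining 19 listed genes had signals from 60.7 at F55A11.10 to 114 at C27H6.5, an intronic gene in unc-41, which encodes a stonin homologue of synaptic vesicle recycling. Over all 29 the values ran from 28.2 to 179 in replicate 1 and from 22.3 to 139 in replicate 2. All 29 were above the tile median in both replicates, but the listing that chose them drew on both replicates, so this is no separate support. Replicate 1 was the higher at 22 of 29, with a median ratio of 1.25, and the ratio ran from 0.621 at T04A8.17 to 3.24 at B0334.12. The 2 unnamed replicate columns of the candidate list held the same values as the replicates' own candidate lists at all 29 genes. Over all candidates the median ratio of the first of these columns to the second was 1.08, so replicate 1 tended to be higher there too.

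**Figure D1:**
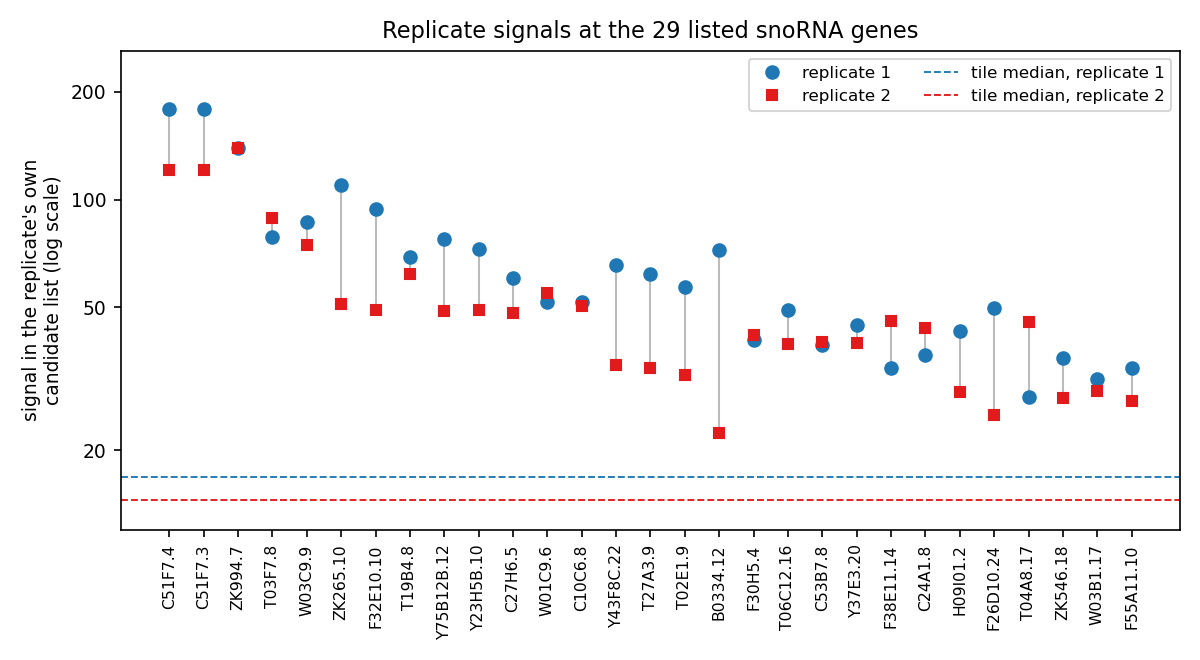
Signal in each replicate's own candidate list (log axis) at the 29 listed snoRNA genes, ordered by the signal on pooled reads, with circles for replicate 1, squares for replicate 2 and dashed lines for the tile medians of 16.9 and 14.5. Each gene, chosen by a listing that drew on both replicates, lies above both lines, and B0334.12 has the widest gap between the replicates.

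Summits were listed both at intronic and at free-standing snoRNA genes. Of the intronic genes 13 of 169 were listed (7.69%, interval 4.16 to 12.8%), of the free-standing ones 11 of 124 (8.87%, 4.51 to 15.3%), and of the exon-overlapping ones 5 of 53 (9.43%, 3.13 to 20.7%). In replicate 1's own list the shares were 4.73% intronic and 5.65% free-standing, and in replicate 2's 2.96% and 4.84%. The intervals overlap widely, which does not show that the groups are alike.

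The medians of the top signal differed by less than the spread of either group. The median was 32.3 for intronic (quartiles 22.5 and 46.4) and 35.2 for free-standing windows (23.3 and 45.4), a log2 difference of -0.13 on pooled reads. In the replicates it was -0.0048 and -0.038, smaller than on pooled reads in both. A candidate was present in 76.3% of intronic and 66.1% of free-standing windows.

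Host strand was compared within the intronic genes. Summits were listed at 10 of 141 genes on the host strand (7.09%, interval 3.45 to 12.7%) and at 3 of 27 on the opposite strand (11.1%, 2.35 to 29.2%). The 3 opposite-strand genes were T03F7.8 in cutl-18, B0334.12 in the potassium channel gene twk-5, and T04A8.17 in ppat-1. In replicate 1's own list the shares were 3.55% on the host strand and 11.1% on the opposite strand, and in replicate 2's 2.84% and 3.70%. In the optimal list they were 8.51% and 22.2%, and among conservative peaks with a score of 1000 they were 5.67% and 3.70%, so the order of the groups turned with the list. Median top signals were 32.05 on the host strand and 38.6 on the opposite strand. The interval of the smaller group contains that of the larger, so no difference was detectable with 27 genes.

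**Figure D2:**
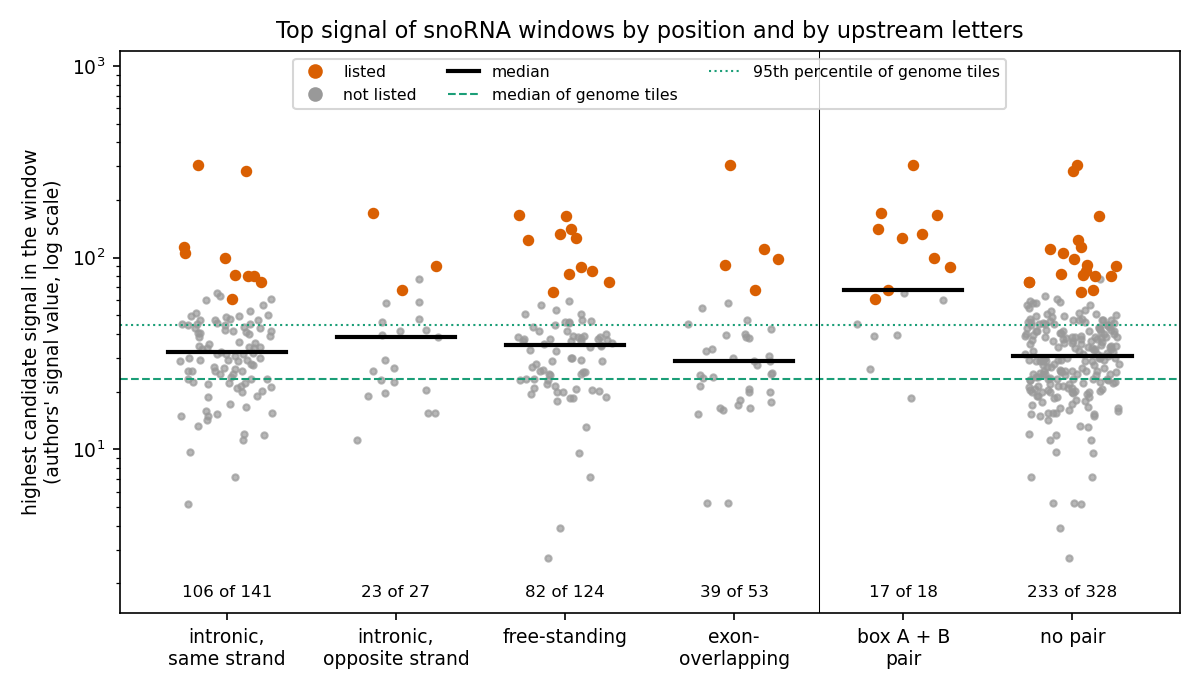
Highest candidate signal (log axis) in each snoRNA window that held a candidate, by genomic position and, right of the line, by upstream box letters, with bars for medians, orange for listed genes and counts of windows with a candidate below. The position groups have medians from 28.9 to 38.6 and overlap, while windows with the box pair have a median of 67.7. The box letters were chosen after the listed sequences had been seen.

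No host gene had more than 1 listed snoRNA. The 169 intronic genes lay in 149 hosts, 16 of them with 2 or more, and the 13 listed genes were in 13 different hosts. Besides frm-7, pxn-1, cutl-18, unc-41, twk-5 and ppat-1 these were catp-8, a cation-transporting ATPase gene, Y43F8C.7, pcyt-2.1, the cyclic nucleotide-gated channel gene cng-3, elf-1, F55A11.6 and hsp-1, which encodes a constitutive Hsp70 chaperone. Hosts with rpl or rps names, which mark ribosomal protein genes, held 19 snoRNA genes in 13 hosts. None of these was listed (0 of 19, interval 0 to 17.6%). The class rests on those names alone, so ubl-1, with 2 unlisted snoRNA genes and a top signal of up to 63.4, and mrps-2 were counted with the other hosts. Candidates were nonetheless present at 18 of these 19, with a median top signal of 36.0 and a highest of 47.5. At 19 genes, an absence of listed summits does not separate these hosts from the 8.90% found in the 146 snoRNA genes of the other hosts.

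The hosts with 3 or more snoRNA genes were also unlisted. In nol-56, which encodes a core protein of box C/D particles, K07C5.18 had a top signal of 11.97, K07C5.10 of 26.8 and K07C5.12 of 7.15, and K07C5.11 had no candidate. In rpl-6, a ribosomal protein gene, R151.11 had 44.3 and R151.13 had 22.4, and R151.12 had no candidate. In the topoisomerase gene top-2, 1 candidate of 25.5 served all 3 windows.

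Listed summits lay just upstream of the snoRNA start. The median offset of the 28 listed summits was -23 bp (quartiles -47.5 and 15.5), where negative means upstream along the snoRNA strand. Of these summits, 20 were upstream, 5 inside and 3 beyond the 3' end, and 19 (67.9%) fell within 100 bp upstream. That zone makes up 18.8% of the window length, and 62 of 238 unlisted candidates (26.1%) fell in it. The median offset was -11 bp in replicate 1's own list (n = 17) and -33.5 bp in replicate 2's (n = 12), an SD of 15.9 bp.

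**Figure D3:**
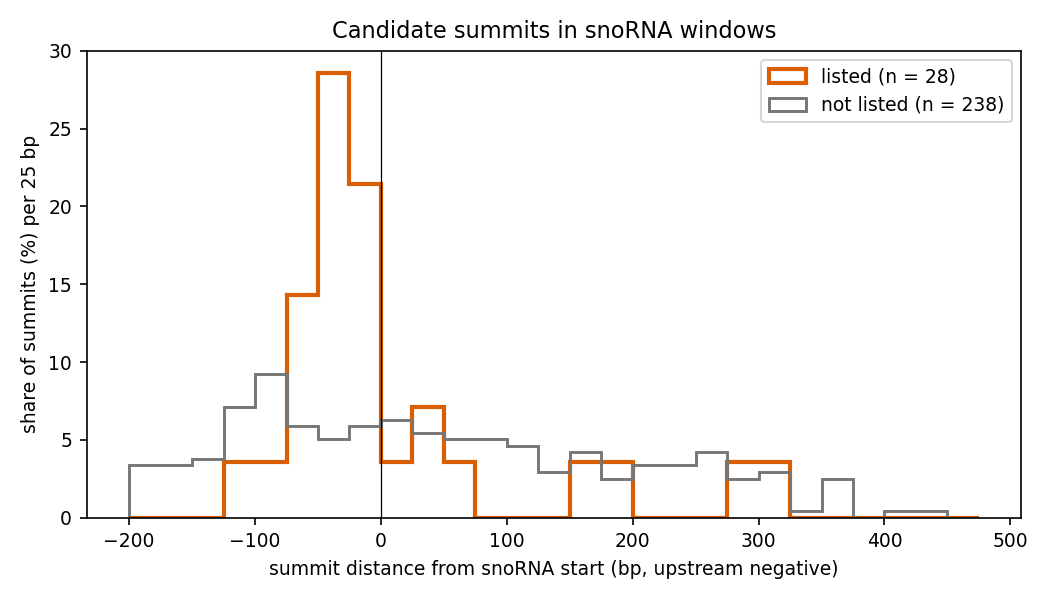
Share of candidate summits per 25 bp of distance from the snoRNA start, for 28 listed (orange) and 238 unlisted (grey) summits in snoRNA windows. The listed summits pile up in the 75 bp before the start, and the unlisted ones spread over the window.

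Most listed summits were upstream in each genomic setting, 8 of 12 at intronic, 8 of 11 at free-standing and 4 of 5 at exon-overlapping genes. The median offset of listed summits was -15.5 bp for intronic, -27 bp for free-standing and -26 bp for exon-overlapping genes. For unlisted candidates these medians were 20, 22.5 and 91 bp. Inside the gene were the summits of C51F7.4, Y75B12B.12, Y43F8C.22, H09I01.2 and W03B1.17. Beyond the 3' end were those of C24A1.8 in the long first intron of elf-1, with its summit 197 bp past the 3' end, F26D10.24 in hsp-1 with 172 bp, and B0334.12 in twk-5 with 86 bp. In 12 of the 13 intronic cases the summit itself lay in the host intron, the exception being F26D10.24. The host introns of listed genes had a median length of 334 bp (194 to 17822), against 440.5 bp for unlisted ones.

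The pair of box letters marked a small group with high signal. Box A letters followed by box B letters on the snoRNA strand, within 200 bp upstream to 10 bp inside the gene, were present at 18 of 346 snoRNA genes. Of these 18 genes 10 were listed (55.6%, interval 30.8 to 78.5%), against 19 of 328 without the pair (5.79%, 3.52 to 8.90%). The strongest summit counts on both sides: C51F7.3 is among the 10 and C51F7.4, which shares its summit, is among the 19. The boxes upstream of C51F7.3 lie inside the annotated C51F7.4 gene. The letters were chosen after the listed sequences had been seen, so these counts are a description and not a test. In the replicates' own lists 38.9% and 33.3% of genes with the pair were listed, against 3.35% and 2.13% without.

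Seen the other way, the pair was upstream of 10 of 29 listed genes (34.5%) and 8 of 317 unlisted ones (2.52%). On the opposite strand of the same regions it was found at 0 of 346. It was present in 0.253% of genome pieces of the same length, at 0.135% of protein-coding starts with no tRNA, snRNA or rRNA gene near, and from the start of 59.5% of tRNA genes. Elsewhere the pair was rarely listed: away from tRNA, snRNA and rRNA genes, 13 of 2367 genome tiles that held it on either strand had a listed summit (0.549%, interval 0.293 to 0.937%), against 0.199% of tiles without it. Box B letters, with or without box A, stood upstream of 43 snoRNA genes and 14 of these were listed. The 43 include all 18 genes with the pair and 25 without it, and the 14 include the 10 listed genes with the pair.

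The signal followed the same split in both replicates. The median top signal was 67.7 with the pair and 30.9 without, 41.0 and 22.4 in replicate 1, and 34.6 and 17.7 in replicate 2. The log2 difference was 0.87 and 0.97 in the replicates, a mean of 0.92 with an SD of 0.068 (n = 2). Like the counts, these values are a description, because the letters were chosen from listed sequences. The listing drew on both replicates, so the replicates are not independent support for the split. The pair was spread over settings, with 4 of 9 intronic and 5 of 8 free-standing genes listed.

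The boxes lay close to the start of the RNA. In the 10 listed genes box B began a median of 13 bp before the snoRNA start (9 to 44 bp) and box A a median of 56 bp before it. In 6 of the 10 the summit lay between the start of box A and the end of box B. In the 8 unlisted genes box B began a median of 14.5 bp before the start. A run of TTTT within 20 bp after the gene, the kind of sequence at which RNA polymerase III stops, followed 16 of the 18 genes with the pair. It also followed 21 of 29 listed and 124 of 317 unlisted genes.

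**Figure D4:**
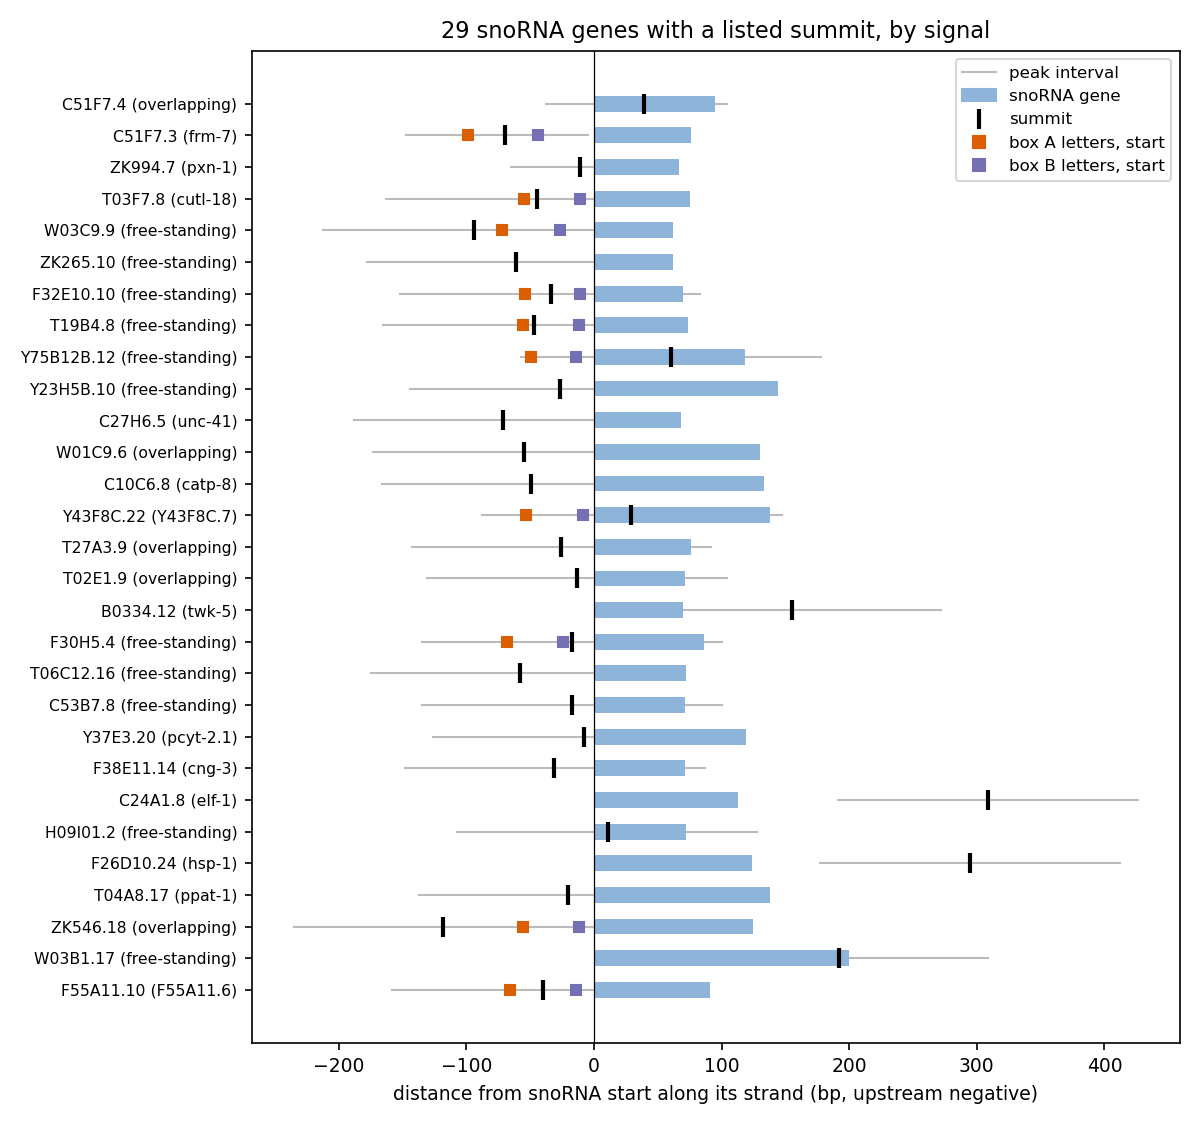
The 29 listed snoRNA genes aligned at their start and ordered by signal, with the gene in blue, the peak interval in grey, the summit as a black bar and the starts of the box A and box B letters as orange and purple squares; names in brackets are the host gene or the genomic setting. The boxes lie upstream at 10 genes, and in 6 of these the summit falls between the start of box A and the end of box B.

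The listed genes with the pair were C51F7.3, T03F7.8, W03C9.9, F32E10.10, T19B4.8, Y75B12B.12, Y43F8C.22, F30H5.4, ZK546.18 and F55A11.10, with signals from 60.7 to 306. The 8 unlisted genes with the pair had top signals of up to 65.5, which overlap the lowest of the listed ones. T08B2.13, in the phenylalanyl-tRNA synthetase gene fars-1, had 65.5, T24H7.6 had 60.3, and M106.6 in mix-1, an SMC family gene, had 45.4. C04G6.12 in the MAP kinase gene mpk-2 had 39.7, T10B9.11 had 39.2, R166.7 in the kinase gene mnk-1 had 26.3 and Y39G10AR.24 had 18.7. Y59E1B.14 had no candidate in its window.

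Of the 19 listed genes without the pair, 3 carried TGTCGG upstream: ZK994.7, Y37E3.20 in pcyt-2.1 and the free-standing W03B1.17. The same letters stood at 3 of 29 listed (10.3%) and 37 of 317 unlisted genes (11.7%). The summit of ZK994.7 lay 11 bp and that of Y37E3.20 8 bp upstream, while that of W03B1.17 lay 192 bp into a gene of 200 bases. TAATTA, a sequence that many homeodomains bind, was within 50 bp of 0 of 28 listed summits on either strand. It was within 50 bp of 1.98% of the other 455 listed summits, and in 4.75% of genome pieces of that length. With 28 summits, 0 is not separable from these shares. The box B letters were within 50 bp of 39.3% of the listed snoRNA summits, 13.4% of the other listed summits and 3.53% of genome pieces. These letters were chosen after the listed sequences had been seen, so their shares are a description. For TATAAA the same shares were 14.3%, 4.84% and 11.2%. For GAACCC, a piece of box B, they were 14.3%, 8.57% and 1.84%.

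A larger share of short than of long snoRNA genes was listed. Of genes of up to 90 nt, 16 of 73 were listed (21.9%, interval 13.1 to 33.1%), and of longer ones 13 of 273 (4.76%, 2.56 to 8.01%). The shares were 16.4% and 2.20% in replicate 1's own list and 11.0% and 1.83% in replicate 2's. Among genes without the box pair the shares were 10 of 63 and 9 of 265. The length limit was chosen after the values were seen, so these shares are a description.

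Class letters placed few of the members. Box C/D letters (TGATGA near the start and CTGA near the end) were found in 15 genes, of which 4 were listed (26.7%, interval 7.79 to 55.1%). Box H/ACA letters (ACA at the end) were found in 78, of which 7 were listed (8.97%, interval 3.68 to 17.6%). The remaining 253 carried neither set, with 18 listed (7.11%, 4.27 to 11.0%), so most members could not be placed in a class by these letters. The box C/D share was the highest, but its interval is wide and overlaps the others.

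**Figure D5:**
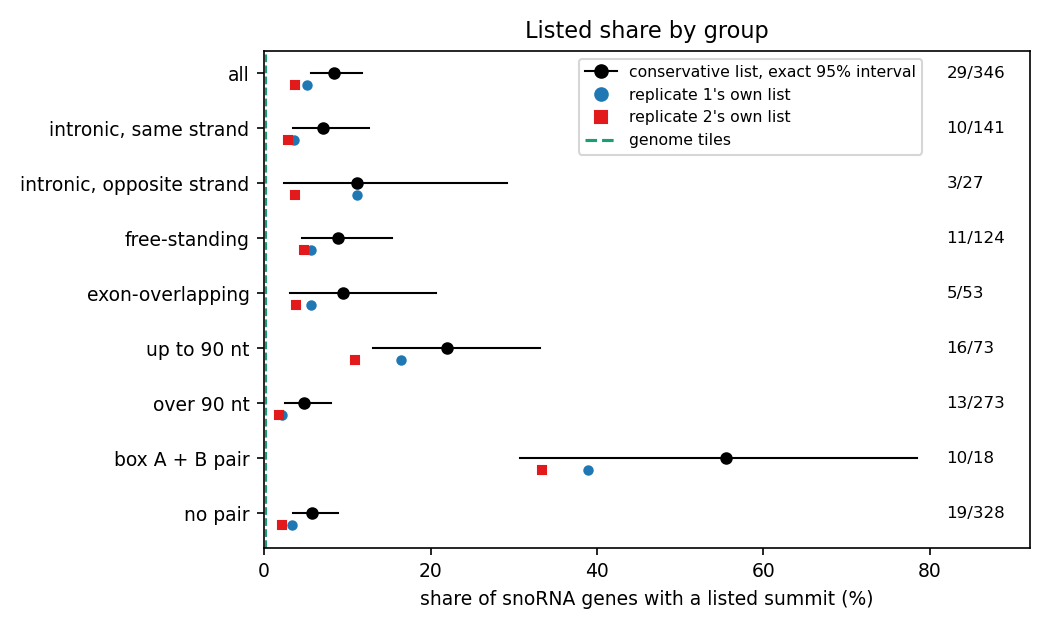
Share of snoRNA genes with a listed summit by group, with black points and exact 95% intervals for the conservative list, blue and red points for each replicate's own list and a dashed line for the genome tiles at 0.236%. The genomic settings overlap, and the box pair stands highest at 55.6%. The box letters and the length limit were chosen after the data had been seen.

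At the edge of the list the scores were close. The listed snoRNA summit with the lowest IDR score was that of B0334.12 with 833, and the unlisted window with the highest was Y48A6C.10, on the opposite strand to sup-35, with 811. The 5 highest signals without listing were ZK484.9 in the ABC transporter gene haf-9 (77.3, with 62.2 in replicate 1 and 21.5 in replicate 2), T08B2.13 (65.5), H06I04.8 (63.4), D1046.6 in the mRNA cleavage factor gene cfim-2 (61.2) and T24H7.6 (60.3). All 5 were intronic, and these values overlap the lowest listed ones. ZK484.9, T08B2.13 and D1046.6 were in the authors' looser optimal list, and ZK484.9 was also in replicate 1's own list. H06I04.8 and T24H7.6 were in none of these lists, but their IDR scores of 741 and 578 passed an IDR of 0.05. Y48A6C.10 was in the optimal list too, and 60.5% of the 31-base words in its window were unique.

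Listed members were found on all 6 nuclear chromosomes. The share was highest on V, with 9 of 55 (16.4%, interval 7.77 to 28.8%), and lowest on X, with 1 of 33 (3.03%, 0.0767 to 15.8%), and these intervals overlap. It was 8.11% on I, 5.63% on II, 5.56% on III and 10.2% on IV. In the replicates' own lists the share on V was 12.7% and 9.09%, and on X 0% and 3.03%. A candidate was present in 48.5% of the X windows. The part of sequence uniqueness in this was not tested: 17 of 96 windows without a candidate and 23 of 250 with one had fewer than 90% unique 31-base words. Among the listed windows 27 of 29 had at least 90%, and the lowest was C53B7.8 with 80.3%. None of the 29 had a tRNA, snRNA or rRNA gene within 400 bp.

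The tRNA and snRNA genes are the closest comparison. tRNA genes were listed at 64 of 612 (10.5%, interval 8.15 to 13.2%) and snRNA genes at 10 of 129 (7.75%, 3.78 to 13.8%). The median top signal of listed genes was 98.3 for snoRNA, 73.4 for tRNA and 65.5 for snRNA genes. The median summit offset was -26 bp for snoRNA, 19 bp for tRNA and 92 bp for snRNA genes, counted per gene.

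The proteins of snoRNA particles and of the snRNA-activating complex were read out at their own promoters, from 1000 bp upstream to 200 bp downstream of transcript starts. Of 15 such genes, 0 had a listed promoter summit, against 159 of 19973 protein-coding genes (0.796%). The highest top signal was 49.5 at dkc-1, which encodes dyskerin, and fib-1, the fibrillarin gene, had 30.6. The median was 26.2, against 27.4 for all protein-coding genes.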

How the data were processed

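ChIP-seq peak files of 2 biological replicates were used as deposited, on ce11 per the labels. Which aligner and peak caller were run is not stated in those labels. The authors deposited a signal value and an IDR score per peak, in columns without a header, and the normalization of the signal is not stated. Read depth is unknown, so no interval or floor for a signal could be given, and replicate signals were not rescaled. No read, control or pooled pseudoreplicate data entered.

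Summits were placed by the peak start and summit columns. Genes came from Ensembl release 115 and sequence from RefSeq WBcel235. A summit in several windows was given to the nearest snoRNA start. Intronic genes lay inside a protein-coding intron and touched no protein-coding exon. Shares carry exact Clopper-Pearson 95% intervals. Scripts were tested on simulated windows and used Python 3.11.15, pandas 2.3.3 and scipy 1.17.1. Replicate values were read from the candidate list of that replicate. Alternatives changed the window, the list, the replicate, the gene classes and the box definition. The named genes were every listed gene by name or range, the 10 highest in full, the 5 highest free-standing and unlisted ones, the list edge, and hosts with 3 or more snoRNA genes. Members, lists and motif letters were chosen with earlier results of these data known.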

Additional observations from a re-analysis of the deposited data

How the results depend on the processing

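Of 104 alternatives, 80 stayed within the interval or replicate spread of the reported value and 24 moved. Leaving 1 replicate out here means using the other replicate's own list, or for signals its own candidate list. The shares so obtained are therefore the own-list shares given above. Those lists hold 156 peaks for replicate 1 and 92 for replicate 2, against 483 in the conservative list. The listed share of all snoRNA genes ran from 3.76% to 5.20% with 1 replicate left out and reached 13.9% at an IDR of at most 0.05. That looser limit also gave 14.2% of intronic, 12.8% of same-strand and 10.7% of genes without the box pair. With 1 replicate left out these ran from 2.96% to 4.73%, from 2.84% to 3.55%, and from 2.13% to 3.35%. The share of genes with the pair, whose alternatives were chosen after seeing the data, ran from 33.3% to 38.9% with 1 replicate left out. Requiring only box B letters, which takes in all 18 genes with the pair, gave 32.6%.

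The log2 difference between intronic and free-standing top signals changed sign with 500 bp either side (0.16) and with empty windows counted at 0 (0.15). It was -0.060 for merged loci, -0.16 away from other RNA genes and -0.038 to -0.0048 with 1 replicate left out. The snoRNA excess over tiles was 0.60 with 100 bp, 0.39 with 500 bp and 0.33 to 0.46 with 1 replicate left out. With empty windows at 0 it had no value, because the tile median was 0. The box pair difference of 1.13 on pooled reads was 1.51 with 100 bp, 1.02 with 500 bp and 0.87 to 0.97 with 1 replicate left out. The median offset was 15.5 bp when the highest candidate of each window was taken, listed or not, and -33.5 to -11 bp with 1 replicate left out. The cause of these shifts was not tested. No paired analysis was possible because there is 1 group. Depth is unknown, so a window without a candidate is not shown to lack binding.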
